A study of Homo sapiens with 5 samples.

Results

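Genes of glycolysis and of the response to low oxygen were followed in the human leukemia line RS4.11, usually written RS4;11, an established line with a rearranged MLL gene. A list of 35 genes was examined, made up of 17 glycolytic enzymes, 4 transporters of glucose and lactate, 4 kinases of the PDK and PFKFB families, 9 targets of the hypoxia-inducible factor HIF, and HIF1A itself. A gene was measured if an array probe was annotated with its symbol and no other, and where several probes were, the brightest on average was taken. By this rule 31 of the 35 genes were measured, of 18417 genes on the arrays. CA9, SLC16A1 and SLC16A3 were not analysed here, and PGAM1 was named only by probes that also name PGAM4. Cells on 3 arrays had received 10 uM of the GSK-3 inhibitor SB216763 for 20 h, and cells on 2 arrays the solvent DMSO. All were grown in vitro, the labels mention no change of oxygen, and 1 line, 1 compound, 1 dose and 1 time limit what the groups stand for. The labels do not say whether each array had its own culture, so the p-values speak only of array-to-array spread, possibly technical, and the number of arrays limits the precision.

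Glycolysis splits glucose into pyruvate, and cells that divide quickly often turn much of that pyruvate into lactate. Glucose enters through SLC2A transporters, is committed by hexokinase and phosphofructokinase, and PDK kinases switch off pyruvate dehydrogenase, which holds back the conversion of pyruvate to acetyl-CoA inside the mitochondrion. HIF-1, a pair of the oxygen-regulated HIF1A protein and its constant partner ARNT, raises transcription of many of these genes when oxygen is low, and the factor MYC binds many of the same promoters. GSK-3 phosphorylates glycogen synthase, beta-catenin and many other proteins.

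All values are log2 expression values from the authors' table, and every difference is SB216763 minus control. Array medians lay between 6.77 and 6.84. The background of an array, the 95th percentile of 341 olfactory receptor genes, lay between 5.98 and 6.19. Of the measured genes, 28 were above it on all 5 arrays and 2, PFKM and EGLN3, on none. Of the markers of B cell precursors, PAX5, CD79B and IGLL1 were above background on all arrays, CD79A on all but 1 control array, and DNTT, RAG1, RAG2, VPREB1, CD22 and CD24 on none, while 6 of 6 measured myeloid markers were above it throughout. Of these 6, MPO, at 6.10 to 6.54, and CD14, at 6.14 to 6.59, lay close to it. The T cell marker CD8A and the erythroid marker KLF1 were also above it on all arrays. HBB was above it on 1 control array only, and CD3D, CD3E and NCAM1 on none. Of 22 measured lineage markers limma called 0, against 5.92% of all genes lower and 7.21% higher. At an unadjusted p under 0.05 there was 1, the myeloid ITGAM, which was higher, against 12.2% of all genes lower and 14.3% higher. Of the 22 markers 9 were above background on no array, so these counts say little. The line is named from the labels, and these markers, some of each lineage above background, do not establish its identity.

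The glucose transporter genes SLC2A1 and SLC2A3, the phosphofructokinase gene PFKP, the lactate dehydrogenase gene LDHA, the kinase gene PDK1 and the hypoxia target NDRG1 fell with SB216763, and the hypoxia target VEGFA rose. These were the 7 of 31 genes with an adjusted p under 0.05 in limma's moderated test with Benjamini-Hochberg adjustment over all 18417 genes, the threshold used throughout. The 6 lower genes made up 19.4% of the measured list, against 5.92% of all genes tested, and the 1 higher gene made up 3.23%, against 7.21% of all genes. Many of all genes were dim, unlike most of the list. In a test of only the 12856 genes above background on at least 2 arrays, 8 of 29 listed genes were lower and 1 higher, against 10.9% and 13.1%. In the test over all 18417 genes the other 24 of the 31 did not pass, and their differences ran from -0.29 to 0.27. The median over the 31 genes was -0.05, and over all genes 0.00. In RNA of whole cultures, less RNA per cell and fewer cells that express a gene cannot be told apart. These counts rest on both control arrays: with either one left out, limma called 0 of the 31. Over all genes it then called 0.00543% lower and 0% higher without control replicate 1, and 0% in each direction without control replicate 2. At an unadjusted p under 0.05, 10 of the 31 were lower and 1 higher without control replicate 1, against 10.3% and 9.24% of all genes, and 7 were lower and 3 higher without control replicate 2, against 8.98% and 12.5%. The 7 genes were among them in both cases, in the same direction, which leaving out an array cannot reverse where the groups do not overlap.

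**Figure D1:**
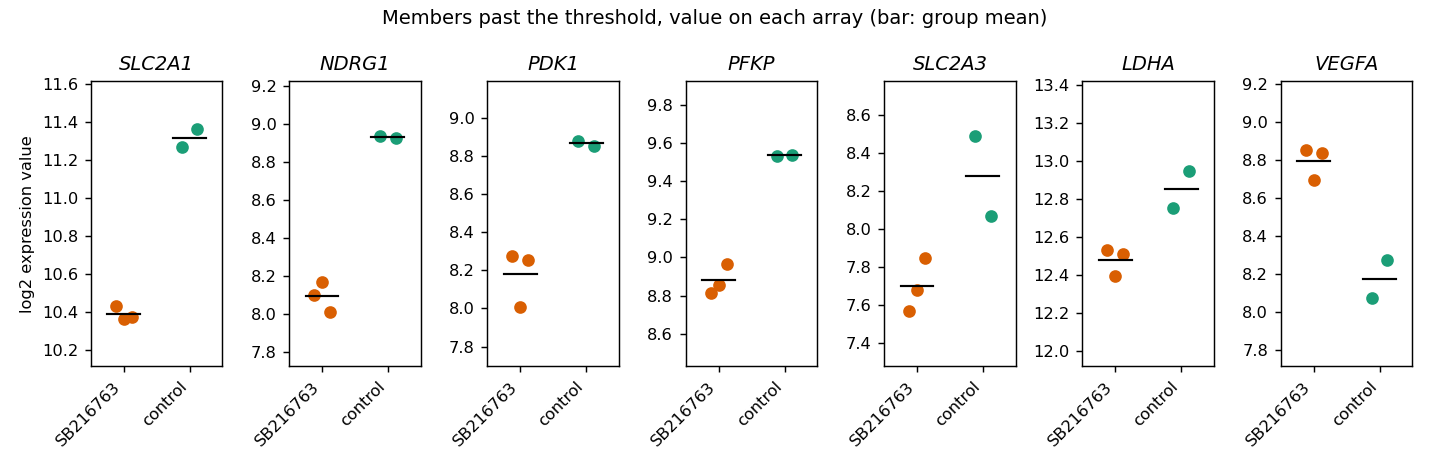
Log2 expression values (y axis, a window of equal height in each panel) of the 7 genes that passed the threshold, with a point for each SB216763 array (orange, left) and each control array (green, right) and a bar at the group mean. In SLC2A1, NDRG1, PDK1, PFKP, SLC2A3 and LDHA every SB216763 point lies under every control point, and in VEGFA above.

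SLC2A1, which encodes the widely expressed glucose transporter GLUT1, had values of 10.43, 10.37 and 10.37 on the SB216763 arrays, against 11.27 and 11.36 on the control arrays. The groups were far apart for their spread, and the difference of -0.92 (SE 0.08, adjusted p = 0.000831 by limma), 1.90-fold, ranked 75 among all genes from the most lowered. SLC2A3 encodes GLUT3, a transporter with high affinity for glucose. Its values were 7.57, 7.68 and 7.85 with SB216763, against 8.49 and 8.06 in controls. The control arrays lay farther from each other than the nearest arrays of the groups, and the difference of -0.58 (SE 0.14, adjusted p = 0.0340 by limma) carried the widest interval of the list, -0.90 to -0.25. Without control replicate 1 the SLC2A3 difference was -0.37 (adjusted p = 0.250), and without control replicate 2 it was -0.79 (adjusted p = 0.0833).

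Of the 16 measured enzymes, PFKP and LDHA fell and 14 did not pass. PFKP, the platelet-type subunit of phosphofructokinase, which catalyses the committed step of glycolysis, had values of 8.81, 8.86 and 8.97 with SB216763, against 9.53 and 9.54 in controls. The highest SB216763 array lay well under both controls, and the difference was -0.66 (SE 0.08, adjusted p = 0.00306 by limma), 1.58-fold. PFKL, the liver-type subunit, had values of 10.30, 10.45 and 10.34 against 10.58 and 10.72. These groups did not overlap either, but the difference of -0.29 (SE 0.09) had an adjusted p of 0.0717 by limma. In 5 of 14 alternative analyses PFKL did pass, and its adjusted p-values over the 14 ran from 0.00889 to 0.291. The muscle-type PFKM was listed at the same value, 5.84, on all 5 arrays and under background, one of 6 such genes in the table, so its probe carried no information on a change.

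At the entry to the pathway, HK1 and HK2 encode hexokinases, which trap glucose in the cell as glucose 6-phosphate. HK1 had values of 6.94, 6.90 and 7.11 with SB216763, against 6.71 and 6.72 in controls. All 3 SB216763 arrays were higher, with a difference of 0.27 (SE 0.09, adjusted p = 0.101 by limma) that did not pass. HK2 lay between 9.87 and 9.93 with SB216763 and at 9.95 and 9.99 in controls, with a difference of -0.08 (95% interval -0.25 to 0.10). GPI, which converts glucose 6-phosphate to fructose 6-phosphate, differed by 0.02 (interval -0.16 to 0.19), so a change as large as that of PFKP lay outside its interval.

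From aldolase downward, LDHA passed and the other enzymes did not. TPI1, which interconverts the triose phosphates, had values of 12.12, 12.02 and 12.03 with SB216763, against 12.27 and 12.40 in controls, a difference of -0.28 (SE 0.08, adjusted p = 0.0684 by limma). Its second probe differed by -0.27. ENO1, the common enolase, had values of 13.58, 13.56 and 13.57 against 13.71 and 13.93, a difference of -0.25 (SE 0.09, adjusted p = 0.119). PGK1, which makes the first ATP of the pathway, had 11.66, 11.51 and 11.64 against 11.73 and 11.92, a difference of -0.22 (SE 0.09, adjusted p = 0.183). In these 3 genes the groups did not overlap, and in ENO1 and PGK1 the control arrays lay almost as far from each other as the group means did. Without control replicate 2 the difference of ENO1 was -0.14 and that of PGK1 -0.13, and without control replicate 1 they were -0.36 and -0.32. Over the 14 alternative analyses TPI1 passed in 5, ENO1 in 3 and PGK1 in 1. ALDOA differed by -0.18 and PKM, the pyruvate kinase that ends the pathway, by -0.05. ALDOC, the aldolase of nervous tissue, and ENO2, the neuronal enolase, both differed by -0.00, and ENO2 lay close to background.

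GAPDH, the dehydrogenase in the middle of the pathway and a common loading control, stood on the other side. Its values were 14.11, 14.09 and 14.04 with SB216763, against 13.81 and 13.95 in controls. The difference of 0.20 (SE 0.08) had an adjusted p of 0.170 by limma and did not pass. Over the 14 alternatives its adjusted p ran from 0.0426 to 0.499, and it passed in 1 of them, with array weights. Without control replicate 1 its difference was 0.13. Over the 16 enzymes, 12 differences were below 0, 3 above and 1 at 0, and those of LDHB, ALDOC, ENO2 and GPI changed sign in some of the alternatives. In 9 enzymes every SB216763 array lay under both controls and in 2 above both, where 19.9% and 21.6% of all genes did so. Control replicate 2 was the higher control in 12 of the 16 enzymes, or 75%, against 61.9% of all genes. The median of control replicate 2 minus control replicate 1 was 0.098 over the enzymes and 0.043 over all genes. The part of this in the results was not tested. ENO1, PGK1, LDHA, TPI1 and GAPDH have pseudogene copies of similar sequence, and signal from a copy cannot be told apart from theirs.

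**Figure D2:**
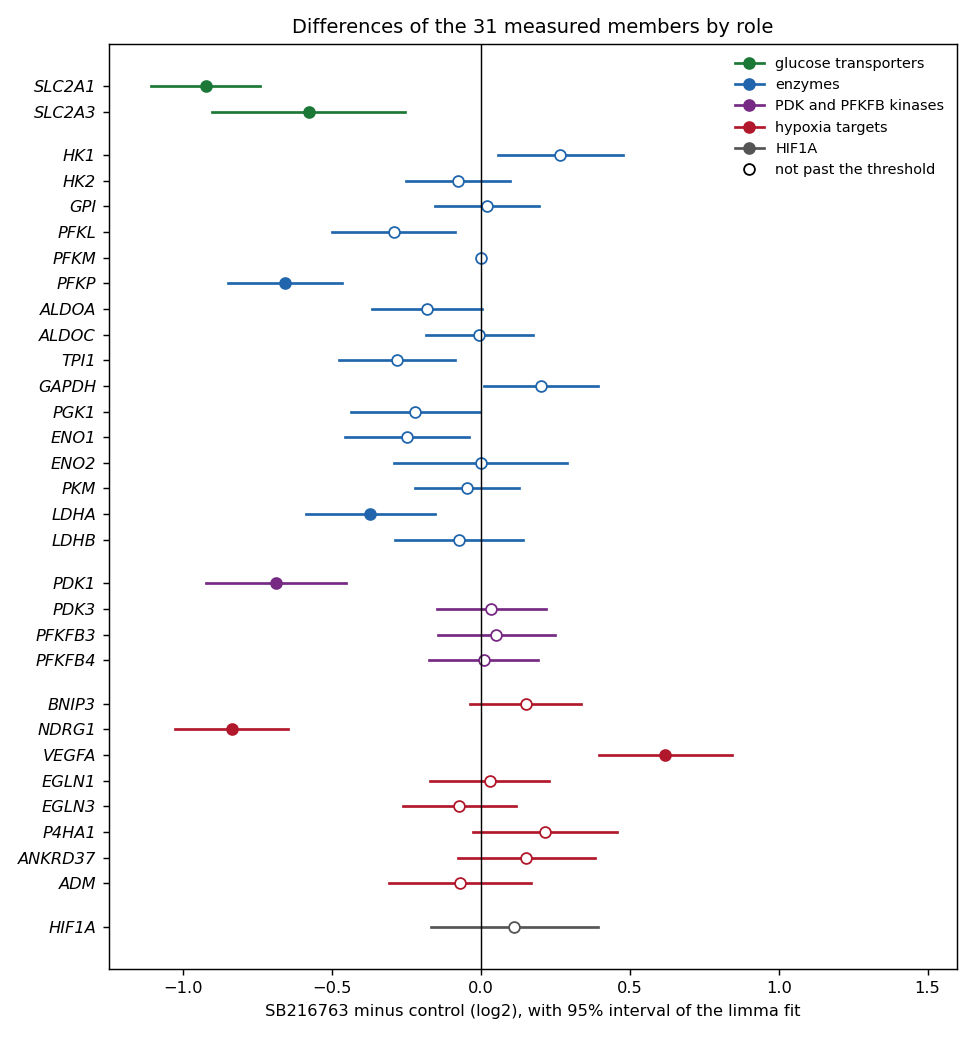
Difference SB216763 minus control on the log2 scale (x axis) for the 31 measured genes, grouped by role from top to bottom, with the 95% interval of the limma fit as a line. Filled points passed the threshold, open ones did not; the enzymes lie mostly between -0.29 and 0.27, with PFKP at -0.66 and LDHA at -0.37. PFKM has no line, as its value was the same on every array.

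LDHA encodes the lactate dehydrogenase subunit that favours making lactate from pyruvate, and LDHB the subunit that favours the reverse. LDHA had values of 12.53, 12.39 and 12.51 with SB216763, against 12.75 and 12.95 in controls, and fell by 0.37 (SE 0.09, adjusted p = 0.0386 by limma). This call was close to the threshold and was lost with any single array left out, with adjusted p-values between 0.0627 and 0.214. LDHB had values of 12.32, 12.20 and 12.34 against 12.26 and 12.46, groups that overlapped, with a difference of -0.07 (interval -0.29 to 0.14). Both genes were higher on control replicate 2 than on control replicate 1 by nearly the same amount, and the difference between them on an array was steadier than either value. LDHA minus LDHB was 0.22, 0.19 and 0.17 on the SB216763 arrays, against 0.49 and 0.49 on the control arrays. The change of -0.30 was many times the residual SD of 0.020, but an SD from 5 arrays is imprecise. It was the smallest among the 5 pairs compared next, where the others ran from 0.10 to 0.25.

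The same was computed for 5 pairs of related genes, where only the change of a pair's difference can be read, since levels of different probes cannot be compared. PDK1 minus PDK3 changed by -0.72, PFKP minus PFKL by -0.36 and HK2 minus HK1 by -0.34, and in these 3 and the LDHA pair the groups did not overlap. SLC2A1 minus SLC2A3 was 2.87, 2.69 and 2.53 with SB216763, against 2.78 and 3.30 in controls, and these overlapped. With 3 arrays against 2, the two-sided exact permutation test used, which doubles the smaller tail, cannot give a p below 0.2. It gave 0.2 for each of the 4 pairs that did not overlap, or 0.25 adjusted over the 5 pairs, and 0.4 for the glucose transporters.

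**Figure D3:**
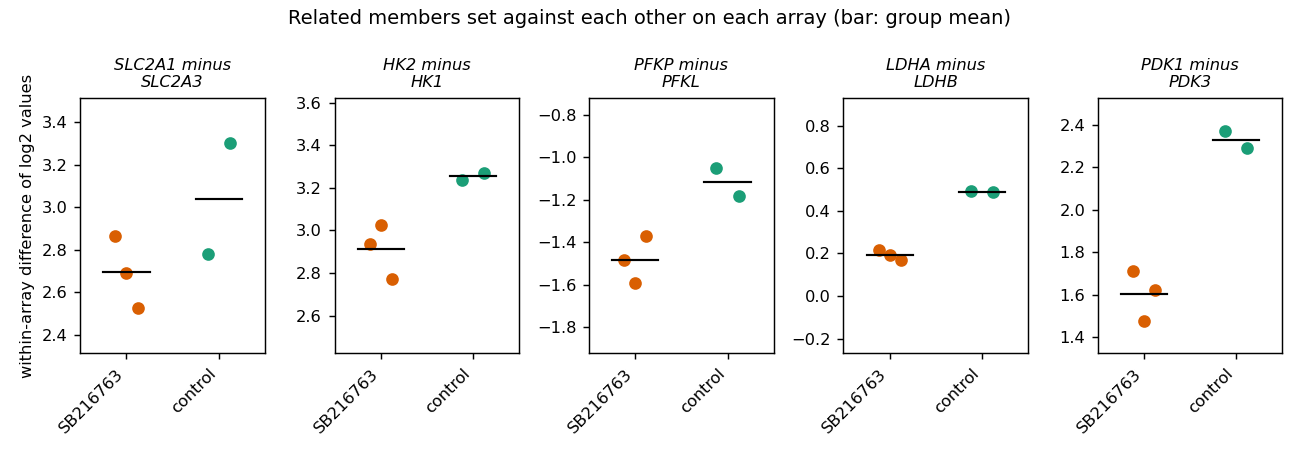
Difference of 2 related genes' log2 values on each array (y axis, windows of equal height) for 5 pairs, SB216763 arrays in orange on the left, control arrays in green on the right, bars at group means. LDHA minus LDHB lies between 0.17 and 0.22 with SB216763 and at 0.49 in both controls.

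Of the 4 kinases that steer the pathway, PDK1 fell and 3 did not pass. PDK1, which phosphorylates and switches off pyruvate dehydrogenase, had values of 8.28, 8.01 and 8.26 with SB216763, against 8.88 and 8.86 in controls. SB216763 replicate 2 was the lowest array, and with it left out the difference was -0.60, against -0.69 (SE 0.10, adjusted p = 0.00554 by limma) with all arrays. PDK3, a relative of PDK1, differed by 0.04 (interval -0.15 to 0.22). PFKFB3 and PFKFB4 make fructose 2,6-bisphosphate, the activator of phosphofructokinase, and differed by 0.05 (interval -0.14 to 0.25) and 0.01 (interval -0.17 to 0.19). The intervals of these 3 genes did not reach the change of PDK1.

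Of 8 measured hypoxia targets, NDRG1 fell, VEGFA rose and 6 did not pass. The share was 12.5% in each direction, against 5.92% lower and 7.21% higher of all genes, and 1 gene a direction is too few to read against it. NDRG1, a stress-induced gene whose transcript is known to rise in low oxygen, had values of 8.10, 8.17 and 8.01 with SB216763, against 8.94 and 8.92 in controls, groups that were far apart. Its difference was -0.84 (SE 0.08, adjusted p = 0.00133 by limma), 1.79-fold, and ranked 110 among all genes from the most lowered. VEGFA, the growth factor of blood vessels, had 8.85, 8.70 and 8.84 against 8.08 and 8.28, with every SB216763 array above both controls. Its difference was 0.62 (SE 0.10, adjusted p = 0.00681 by limma), 1.54-fold, the largest increase of the list.

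P4HA1, a collagen prolyl hydroxylase, had values of 9.84, 9.61 and 9.90 with SB216763, against 9.56 and 9.58 in controls, a difference of 0.22 (SE 0.10, adjusted p = 0.241 by limma). SB216763 replicate 2 lay close to the controls, and with it left out P4HA1 was called higher. BNIP3, which promotes removal of mitochondria, differed by 0.15 (interval -0.04 to 0.34), and ANKRD37 by 0.15 (interval -0.08 to 0.38). EGLN1, the main oxygen sensor that marks HIF1A protein for destruction, differed by 0.03 (interval -0.17 to 0.23). Adrenomedullin, ADM, differed by -0.07 (interval -0.31 to 0.17), and EGLN3 was not above background on any array, so no fold is given. HIF1A had values of 9.09, 8.85 and 9.26 against 8.95 and 8.96, with a difference of 0.11 (interval -0.17 to 0.39). HIF1A is controlled mainly through its protein, which these arrays do not measure.

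Set side by side, the enzymes had a median difference of -0.08 and the hypoxia targets one of 0.09, where all genes had 0.00. Of the enzymes 2 of 16 were lower and 0 higher by limma, with 6 lower and 2 higher at an unadjusted p under 0.05, where all genes had 12.2% and 14.3%. Of the hypoxia targets 1 of 8 was lower and 1 higher, and the counts at the unadjusted level were equal to these. Taken per array and relative to the control mean of each gene, the median enzyme lay at -0.07, -0.11 and -0.14 on the SB216763 arrays and at -0.05 and 0.05 on the controls. The median hypoxia target lay at 0.10, 0.05 and 0.08 on the SB216763 arrays and at -0.06 and 0.06 on the controls. The 2 control values of a class mirror each other by construction, and the residual SD of these medians was 0.048 for the enzymes and 0.050 for the hypoxia targets. Both medians are small beside the largest single differences in either class, and no test was made of a list.

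Promoter sequence is shown for 3 of the lower genes, and for HK2, which did not pass, because HIF and MYC both recognise short motifs in such windows. Windows of 250 bases before to 50 after a transcription start came from RefSeq, build GRCh38.p14, and 28 of the 31 measured genes matched at least one, all but SLC2A3, NDRG1 and VEGFA. The motifs searched, on both strands, were the HIF core letters ACGTG and GCGTG and the E-box CACGTG bound by MYC, which contains ACGTG. Core matches were counted on each strand. An E-box reads the same on both strands, so each one also counted as 2 core matches. Where a gene has several windows, the one with the most core matches is printed. HK2 was picked because by this count its window held the most core matches of the genes that did not pass, level with BNIP3 but with more ACGTG. The pick depended on the count: HK2 held 2 E-boxes and BNIP3 1, and with each E-box counted once BNIP3 would hold more. PFKP, the other lower gene with a window, is not printed. The LDHA window is chr11:18394313-18394612, plus strand, the PDK1 window chr2:172555840-172556139, plus strand, the SLC2A1 window chr1:42958819-42959118, minus strand, and the HK2 window chr2:74834920-74835219, plus strand. Capitals mark the HIF core matches on either strand.
LDHA: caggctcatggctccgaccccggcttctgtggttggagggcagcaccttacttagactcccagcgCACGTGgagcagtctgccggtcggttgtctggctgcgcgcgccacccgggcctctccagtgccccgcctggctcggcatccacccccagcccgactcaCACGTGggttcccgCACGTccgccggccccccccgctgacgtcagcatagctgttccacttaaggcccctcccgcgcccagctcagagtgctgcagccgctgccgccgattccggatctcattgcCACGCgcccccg
PDK1: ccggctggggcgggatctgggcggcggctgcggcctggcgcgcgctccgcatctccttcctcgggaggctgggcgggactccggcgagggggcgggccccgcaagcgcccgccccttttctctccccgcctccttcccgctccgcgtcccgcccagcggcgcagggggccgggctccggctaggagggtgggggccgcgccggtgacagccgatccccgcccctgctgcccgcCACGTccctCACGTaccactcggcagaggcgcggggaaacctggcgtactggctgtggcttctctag
SLC2A1: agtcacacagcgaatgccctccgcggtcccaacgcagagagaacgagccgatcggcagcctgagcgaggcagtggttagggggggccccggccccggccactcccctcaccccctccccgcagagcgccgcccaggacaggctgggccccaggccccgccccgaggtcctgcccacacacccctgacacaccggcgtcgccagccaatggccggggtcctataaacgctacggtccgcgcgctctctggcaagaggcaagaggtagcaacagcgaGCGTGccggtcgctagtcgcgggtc
HK2: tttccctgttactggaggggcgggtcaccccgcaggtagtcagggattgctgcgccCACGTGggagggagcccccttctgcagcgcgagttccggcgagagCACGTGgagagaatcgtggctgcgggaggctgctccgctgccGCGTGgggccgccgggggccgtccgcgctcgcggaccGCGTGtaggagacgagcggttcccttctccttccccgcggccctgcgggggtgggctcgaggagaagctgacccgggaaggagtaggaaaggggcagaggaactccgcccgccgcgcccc
The LDHA window held 6 core matches and 2 E-boxes, the PDK1 window 2 core matches and no E-box, the SLC2A1 window 1 core match and no E-box, and the HK2 window 6 core matches and 2 E-boxes. In LDHA and HK2 the core matches include each E-box once per strand, so they outnumber the stretches in capitals. The PFKP window with the most matches held 3 core matches, all of them GCGTG, and no E-box.

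At least one ACGTG or GCGTG lay in 68.6% of the 51 windows of the measured genes, against 48.4% of all promoter windows. The share was 55.1% in windows of all genes tested and 66.2% in those of all genes called lower, which per window is close to that of the list. Counted by gene it was not close. At least one window held such a match in 27 of the 28 listed genes, or 96.4%. This compares with 52.4% of all genes with a window, 62.8% of those tested and 74.9% of those called lower. The E-box lay in 15.7% of the measured genes' windows, against 7.26% of all windows, 8.32% for all genes tested and 10.5% for all genes called lower. ACGTG alone lay in 33.3% of the 9 windows of the 4 lower genes with a window, and in 45.2% of the 42 windows of genes that did not pass. It lay in 21.4% of all windows, 23.2% of those of all genes tested and 27% of those of all genes called lower. Counted by gene the order was the other way round, with ACGTG in at least one window of 3 of the 4 lower genes and of 15 of the 24 that did not pass. The share by gene was 24.9% of all genes with a window, 28.9% of those tested and 34.8% of those called lower. No order between the lower genes of the list and those that did not pass can be read. Such matches lay in windows of lower genes and of genes that did not pass, as in LDHA and in HK2, which was picked for its matches. A match is a description of letters, not a bound site.

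Other genes of the surrounding pathways were taken from 6 lists with 97 measured genes, of which 5 fell and 5 rose. Both shares were 5.15%, against 5.92% and 7.21% of all genes. Of 18 further glycolysis genes, PFKFB2, which makes and breaks fructose 2,6-bisphosphate, rose to 7.26, 7.16 and 7.04 with SB216763, against 6.45 and 6.66 in controls. Its difference was 0.60 (SE 0.10, adjusted p = 0.00989 by limma). ENO3, the muscle enolase, rose by 0.35 (SE 0.08, adjusted p = 0.0331). FBP1, of gluconeogenesis, differed by -0.27 (adjusted p = 0.0621) and the mitochondrial phosphatase PGAM5 by -0.27 (adjusted p = 0.0837). Of 11 genes of pyruvate import and of pyruvate dehydrogenase, its regulators and pyruvate carboxylase, and 17 of the citrate cycle, limma called 0 in each, with 2 lower in the first list, and 1 lower and 2 higher in the second, at an unadjusted p under 0.05. PDHB, a subunit of pyruvate dehydrogenase, differed by -0.23, pyruvate carboxylase, PC, by -0.27, the dehydrogenase core DLAT by -0.15 and the pyruvate carrier MPC1 by 0.19. In the citrate cycle SUCLG2 differed by -0.31 (adjusted p = 0.0548), citrate synthase, CS, by 0.22, MDH2 by 0.19 and IDH1 by -0.20.

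Of 7 pentose phosphate genes, RPIA, which makes ribose 5-phosphate for nucleotides, fell by 0.38 (SE 0.09, adjusted p = 0.0279 by limma). PGD, PGLS and RPE of the same pathway differed by 0.22, 0.29 and 0.18 and did not pass. Of 31 further hypoxia targets, 3 fell and 2 rose, or 9.68% and 6.45%, against 5.92% and 7.21% of all genes. TFRC, the transferrin receptor through which cells take up iron, had values of 10.79, 10.65 and 10.81 with SB216763, against 11.91 and 12.03 in controls. At -1.22 (SE 0.09, adjusted p = 0.000553 by limma), 2.33-fold, its difference was larger than any in the main list. ERO1A, an oxidase of disulfide formation, fell by 0.82 (SE 0.09) and the zinc finger gene ZNF395 by 0.46 (SE 0.08). DDIT4, an inhibitor of mTORC1, rose by 0.66 (SE 0.12), and the chemokine receptor CXCR4 by 0.63 (SE 0.11), with adjusted p-values of 0.0126 and 0.00906.

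Of 13 genes of HIF regulation, ARNT rose and CITED2 fell. ARNT, the HIF1A partner, had values of 9.90, 9.89 and 9.85 with SB216763, against 9.26 and 9.24 in controls. The arrays within each group lay close together, and the difference was 0.63 (SE 0.07, adjusted p = 0.00255 by limma). CITED2, which competes with HIF1A protein for the coactivators CBP and p300, had 9.01, 8.87 and 8.90 against 9.65 and 9.47, a difference of -0.63 (SE 0.09, adjusted p = 0.00546). ELOB and ELOC, partners of the VHL ubiquitin ligase, differed by -0.24 and -0.34 and did not pass. VHL itself differed by 0.00 (interval -0.21 to 0.21). In the 10 genes of these other lists that passed, the groups did not overlap, so leaving out an array could not reverse their direction. With either control array left out, limma called 0 of the 10 genes named here as having passed, while all 10 kept their direction with an unadjusted p under 0.05.

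**Figure D4:**
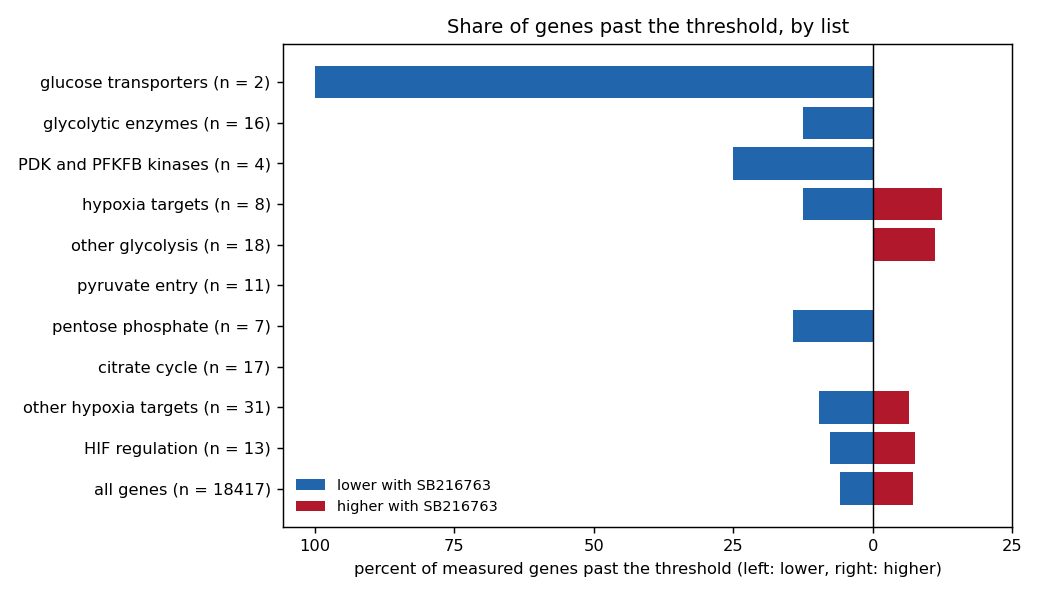
Percent of measured genes past the threshold in each list (x axis), lower with SB216763 to the left in blue and higher to the right in red, with the number measured in brackets. All genes, at the bottom, stand at 5.92% lower and 7.21% higher; the glucose transporters reach 100% with only 2 genes.

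The calls differed in how they held when single arrays were left out. NDRG1, PFKP, PDK1, SLC2A1 and VEGFA passed whichever SB216763 array was left out. SLC2A3 did not pass without SB216763 replicate 1 (adjusted p = 0.117) or replicate 2 (adjusted p = 0.0748). Without moderation of the variances 1 of the 31 genes, SLC2A1, was called lower and 0 higher, against 0.679% and 0.684% of all genes. With array weights 9 were called lower and 3 higher, against 11.7% and 13.9%. With a control array left out, the smallest adjusted p of the list belonged to SLC2A1, at 0.0572 without control replicate 1 and 0.0593 without control replicate 2. The differences of SLC2A1 stayed between -0.97 and -0.88 over all 14 other settings, and those of NDRG1 between -0.87 and -0.80.

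**Figure D5:**
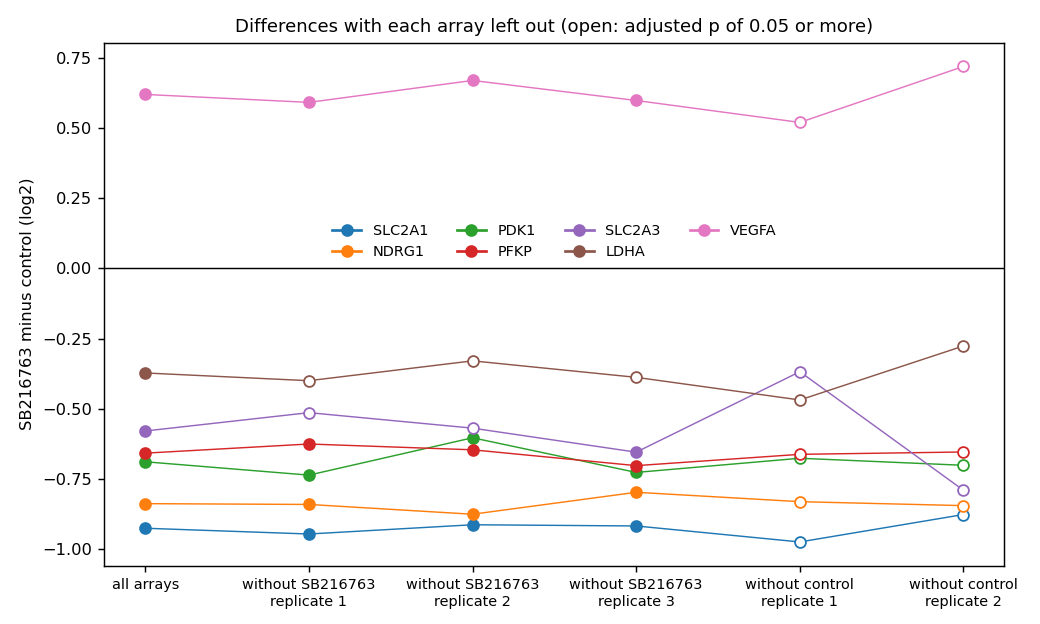
Difference SB216763 minus control (y axis, log2) of the 7 genes that passed, with all arrays and with each array left out in turn (x axis). The groups of these genes do not overlap, so leaving out an array cannot change a sign. Filled points have an adjusted p under 0.05 by limma; the lines join values of a gene and no gene crosses 0, while all points are open without either control array.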

How the data were processed

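Total RNA of 5 samples was measured on whole-transcript arrays. The authors deposited 1 table of log2 values, a scale read from the range. Affymetrix Expression Console is the tool named per the submitters' processing notes; version, summarisation and build: not given in the sources used here. The values were used as deposited. Of 33297 probes, 19460 named exactly 1 gene in the platform annotation, which gave 18417 genes.

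The fit was lmFit and eBayes of limma 3.58.1 under R 4.3.3, two-sided, p-values adjusted by Benjamini-Hochberg across the 18417 genes. Intervals are 95% intervals of the moderated fit. Pairs of genes were tested with exact permutation in scipy 1.17.1. All 35 genes of the list may be named, with up to 4 of each other list by smallest p and every called gene where 5 or fewer were called. In 10 simulations of this comparison on 18417 genes, 92.5% of 1.5-fold and 99.8% of 2-fold changes were recovered, and 6.06% of calls were unchanged genes. Each simulation changed 200 genes, where limma called 2418 in the data. Noise was independent between genes and arrays, with the moderated SDs of the fit shuffled over genes. Effects shared by the genes of an array were left out, so these rates may not hold for the real arrays. The members, lists and alternatives were chosen with earlier results of these data known. The 14 alternative analyses of a gene were dim genes left out, quantile normalization, centring, the mean of probes, a variance trend, no moderation, array weights, a replicate block, all probes tested singly and each of the 5 arrays left out; the class medians were also taken over wider classes. Leaving out a control array leaves 1, which is assumed to vary like the SB216763 arrays.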

Additional observations from a re-analysis of the deposited data

Results flagged for a closer look

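PGAM1, phosphoglycerate mutase, was outside the comparison because its 5 probes also name PGAM4. It was looked at because some of those probes, all well above background, had an adjusted p under 0.05, so their p-values are not separate support. The most changed of them had values of 10.82, 10.76 and 10.83 with SB216763, against 11.21 and 11.24 in controls. Its difference was -0.425 on the log2 scale (SE 0.07, adjusted p = 0.0356 by limma over all 33297 probes). The other 4 probes differed by -0.42, -0.41, -0.33 and -0.33. The last 2 did not pass (adjusted p = 0.0651 by limma) and held equal values on every array, so the 5 are not independent. Which of the 2 genes was measured cannot be told apart. Groups of 3 and 2 arrays are too small for a test of single outlying arrays.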

How the results depend on the processing

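The 6 lower and 1 higher genes were 1 and 0 without moderation, and 9 and 3 with array weights. Without SB216763 replicate 1 there were 4 lower and 1 higher, against 2.46% lower and 2.93% higher of all genes. Without SB216763 replicate 2 there were 5 and 2, against 6.4% and 9.12%, and without SB216763 replicate 3 there were 5 and 1, against 4.33% and 4.39%. As given above, the counts rest on both control arrays. The median of the enzymes was -0.17 after quantile normalization, where all genes had -0.02, and -0.05 to -0.12 with an array left out. That of the hypoxia targets was 0.15 among genes above background on at least 2 arrays, and 0.015 without control replicate 1 to 0.16 without control replicate 2. The causes were not tested. None of the 7 genes that passed changed direction in any of the 14 settings, but only quantile normalization and centring could have changed it. The other settings kept their differences, or left out or reweighted arrays of groups that do not overlap, which cannot reverse a direction. Of the other 24, 9 with small differences did in at least 1, and PFKM, at 0, moved below it. After quantile normalization GPI was at -0.10, PFKFB4 at -0.037, EGLN1 at -0.011, PFKM at -0.010 and PFKFB3 at -0.0032. With each array centred on its median, which put PFKM at -0.035, PFKFB4 was at -0.026, GPI at -0.016, EGLN1 at -0.0067 and PDK3 at -7e-05. With array weights ENO2 was at 0.073, ALDOC at 0.034 and PFKFB3 at -0.0088, and with the replicate number as a block ENO2 was at 0.10, ADM at 0.0078 and PFKFB4 at -0.0021. With an array left out, LDHB ran from -0.17 to 0.023, ADM from -0.14 to 0.0078, ENO2 from -0.12 to 0.12, ALDOC from -0.027 to 0.020, GPI from -0.013 to 0.052, EGLN1 from -0.046 to 0.10, PFKFB3 from -0.00080 to 0.10 and PFKFB4 from -0.021 to 0.040. With the replicate number as a block, 5 genes were lower and 1 higher, against 4.83% and 5.11% of all genes, the median of the enzymes was -0.09 and that of the hypoxia targets 0.08, and LDHA had an adjusted p of 0.0760; the arrays share only a number, and same-numbered arrays deviated with r of -0.05 and -0.10 across genes. Fold changes near background are understated, and 2 control arrays set the precision of every value.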
